A study of Anas platyrhynchos with 6 samples.

Results

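The genes described here are 7 regulators of apoptosis that are often examined in follicle atresia: the caspases CASP8, CASP9 and CASP6, and the BCL2 family genes BAK1, BCL2L11, BCL2L1 and BCL2. They were looked up by symbol in a table of 17169 duck transcripts, where 6 of the 7 each had 1 row. No row carried the symbol BCL2L11, which encodes BIM, and it is not analysed here. All 6 passed a filter on low values (a mean of at least 1 FPKM), as did 13328 transcripts in all. Levels are FPKM, fragments per kilobase of transcript, scaled to library size, so that they can be compared between genes.

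The samples were pieces of ovarian tissue from 6 ducks (Anas platyrhynchos), all 71 weeks old and from a full-sib family, with feed withheld before slaughter. High egg number (HEN) was the label of 3 ducks and low egg number (LEN) that of the other 3, with 1 library per duck. No genotype or treatment set the groups apart, and the egg numbers themselves were not used here. The purpose of the comparison was to find ovarian transcripts that differ with egg number.

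Apoptosis is cell death carried out by caspases, proteases that wait in the cell as inactive precursors. In the extrinsic route a death receptor at the cell surface activates CASP8, and in the intrinsic route mitochondria leak cytochrome c, which activates CASP9 on the APAF1 scaffold. The leak is made by the pore former BAK1, is held back by BCL2 and BCL2L1 (BCL-XL), and is released by BH3-only proteins such as BIM. In the bird ovary most growing follicles do not ovulate but regress by atresia, in which granulosa cells die by apoptosis. Caspases are switched on at the level of the protein, CASP6 by cleavage, and transcript levels do not show this.

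The HEN libraries were not alike, and this bears on every result below. Across the transcripts kept, log2(FPKM + 1) correlated at 0.965 between HEN replicates 2 and 3, but HEN replicate 1 reached only 0.748 and 0.752 with them. Of 15 oocyte and germ cell markers 9 had a row, and their summed level was 538, 10.7 and 9.76 FPKM in the HEN ovaries 1, 2 and 3, against 785, 566 and 1375 FPKM in the LEN ovaries 1, 2 and 3. The germ cell genes DDX4 and DAZL were at 0 FPKM in HEN replicate 2, and at 0.208 and 0.124 FPKM in HEN replicate 3, against at least 16.1 and 86.0 FPKM across LEN. Of 10 dividing cell markers 6 had a row, with a summed level of 885, 29.3 and 61.9 FPKM in the HEN ovaries and 854, 796 and 1222 FPKM in the LEN ovaries. All 6 had a difference below 0, but that of TOP2A was only -0.01. TOP2A was at 8.08, 0.971 and 7.54 FPKM in the HEN ovaries and 3.82, 6.46 and 3.35 FPKM in the LEN ovaries. Granulosa markers, 8 of 14 with a row, summed to 453, 104 and 135 FPKM in the HEN ovaries and to 486, 249.7 and 298 FPKM in the LEN ovaries. Their differences lay above 0 for 3 and below 0 for 5, with a median of -0.28: the transcription factor FOXL2 was at 175, 33.1 and 55.2 FPKM in the HEN ovaries, against 152 to 154 FPKM in the LEN ovaries, whereas NR5A2 was at 1.20, 6.24 and 4.81 FPKM in the HEN ovaries, against 1.09 to 2.35 FPKM in the LEN ovaries. STAR, another of these markers, ran from 17.9 to 253 FPKM within LEN alone and weighs on the granulosa sums. Leukocyte markers, 11 of 14 with a row, summed to 738, 1069 and 1340 FPKM in the HEN ovaries and to 427, 722 and 393 FPKM in the LEN ovaries, and vascular endothelial markers, 8 of 10, to 128, 365 and 321 FPKM in the HEN ovaries and 81.8, 156 and 81.7 FPKM in the LEN ovaries. All libraries thus held granulosa transcripts, whereas 2 of the HEN libraries held little of the oocyte markers other than SYCP3. In bulk tissue, fewer cells of a type and less RNA per cell cannot be told apart. The part of these markers in the differences below was not tested.

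Each member was first placed by its level. BCL2L1 and BAK1 were the most abundant of the 6, at 31.8 ± 5.63 and 29.5 ± 4.44 FPKM over all ovaries (SD, n = 6), and both lay above 73% of the transcripts kept. BCL2L1 exceeded BAK1 in 4 of 6 ovaries, so that the order of these neighbours was within their spread. BAK1 exceeded the row named CASP8 in 6 of 6 ovaries. CASP8 was at 15.5 ± 4.12, CASP6 at 15.1 ± 11.5 and CASP9 at 11.3 ± 2.59 FPKM (SD, n = 6). The order of these 3 caspases was not fixed, since CASP8 exceeded CASP6 in 4 of 6 ovaries and CASP6 exceeded CASP9 in 3 of 6. CASP9 exceeded BCL2 in 6 of 6. BCL2 was the lowest in every ovary, at 3.83 ± 1.98 FPKM (SD, n = 6). CASP6 and BCL2 varied most between ovaries, by 5.23-fold and 5.38-fold from the lowest to the highest, whereas BAK1 varied by 1.56-fold and BCL2L1 by 1.60-fold. The lowest and highest values corresponded to 7 and 41 fragments for BCL2, against 105 and 562 for CASP6.

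**Figure D1:**
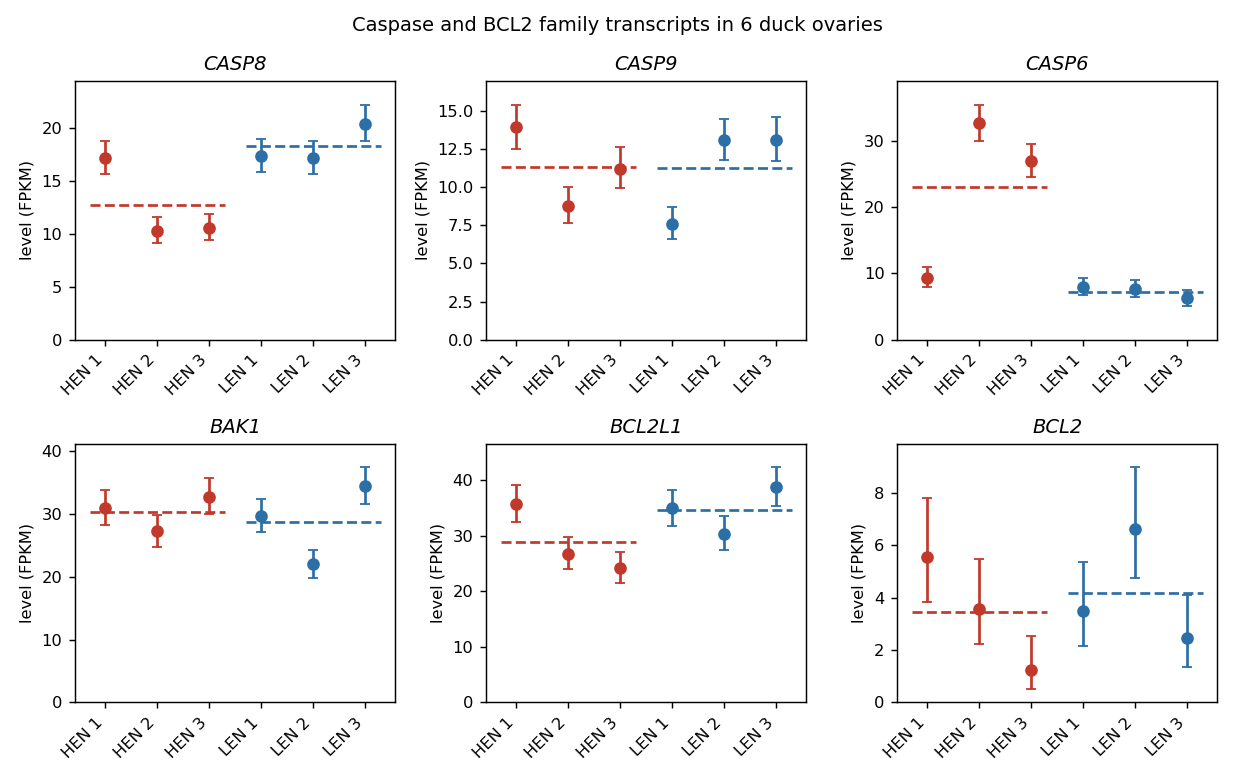
Level in FPKM (vertical axis, from 0) of each caspase and BCL2 family transcript in the 3 HEN ovaries (red, left) and 3 LEN ovaries (blue, right); bars are 95% Poisson intervals for counting error only and dashed lines are group means. CASP6 stands at 32.6 and 26.9 FPKM in HEN 2 and HEN 3 and between 6.24 and 9.35 FPKM in the other 4 ovaries, while BAK1 and CASP9 show no such split.

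None of the 6 members passed the test between HEN and LEN. limma, fitted to log2(FPKM + 1) of all 13328 transcripts with Benjamini-Hochberg adjustment, called 0 of them at an adjusted p under 0.05, a background of 0%. At an unadjusted p under 0.05 it had 2929 transcripts, 22.0% of all, and 1 of the 6 members, CASP6. Groups did not overlap for 1 of the 6 members, again CASP6, with HEN above LEN, where 6.92% of all transcripts lay that way, 13.4% the other way and 20.3% in either. The median HEN minus LEN difference was -0.12 over the 6 members (3 above and 3 below 0) and -0.24 over all transcripts, of which 37.1% were above 0. The median of the members turned to 0.14 with upper quartile scaling, 0.13 with trimmed means and 0.29 with quantile normalization. Upper quartile scaling brought that overall shift to 0.01, trimmed means to 0.00 and quantile normalization to 0.07, so that differences are also given relative to it. The smallest two-sided p that an exact permutation test of 3 against 3 ducks can give is 0.1.

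The executioner caspase CASP6 cleaves structural proteins such as nuclear lamins. Its transcript (ENSAPLG00000010415, scaffold KB743113.1, from 1448009 to 1455939, minus strand) was at 9.35, 32.6 and 26.9 FPKM in the HEN ovaries 1, 2 and 3, against 7.93, 7.58 and 6.24 FPKM in the LEN ovaries 1, 2 and 3. HEN replicates 2 and 3 were far above the other 4 ovaries, and HEN replicate 1 was just above LEN. The means were 23.0 ± 12.1 FPKM in the HEN ovaries and 7.25 ± 0.893 FPKM in the LEN ovaries (SD, n = 3 each), a 3.17-fold ratio of means and on the log2(FPKM + 1) scale HEN was higher by 1.38 ± 0.46 (SE), or 1.61 above the median of all transcripts. limma gave an unadjusted p of 0.02 and an adjusted p of 0.226, and the exact permutation test gave p = 0.1 (two-sided). The steps between FPKM values corresponded to 163, 562 and 450 fragments in HEN and 140, 138 and 105 in LEN. The 95% Poisson interval of HEN replicate 1, 7.97 to 10.9 FPKM, overlapped that of LEN replicate 1, 6.67 to 9.36 FPKM, and that of LEN replicate 2, 6.37 to 8.96 FPKM, but not that of LEN replicate 3, 5.10 to 7.55 FPKM.

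The difference in CASP6 rested on HEN replicates 2 and 3. Without HEN replicate 1, limma called CASP6 as higher in HEN (1.90 ± 0.23, SE, adjusted p = 0.000336). In that setting 48.8% of all transcripts were called, 11.8% higher and 37.0% lower, against 2 of the 6 members. When HEN replicates 2 and 3 were left out, an alternative added once the data had been seen, the difference was 0.33 ± 0.34 (SE, adjusted p = 1), where 0.00750% of all transcripts were called. CASP6 was above LEN under all 20 alternatives run, between 0.33 and 1.90. A changed filter, limma without trend, robust variance or a replicate block leaves the difference at 1.38 by construction. All alternatives use the same ducks, so that their shared sign is no independent support. The genes on either side of CASP6 on the scaffold, looked up after its values were seen, were also highest in HEN replicates 2 and 3. MCUB, a subunit of the mitochondrial calcium uniporter, was at 7.69, 19.4 and 15.96 FPKM in the HEN ovaries and 7.79, 8.47 and 7.65 FPKM in the LEN ovaries. PLA2G12A, a secreted phospholipase, was at 22.8, 47.6 and 40.2 FPKM in the HEN ovaries and 17.3, 19.7 and 12.5 FPKM in the LEN ovaries. No other row of the table overlaps the position of CASP6.

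CASP8 is the initiator caspase of death receptors. The row with this symbol (ENSAPLG00000014872, scaffold KB742719.1, from 55431 to 60677, minus strand) was at 17.2, 10.3 and 10.6 FPKM in the HEN ovaries, against 17.3, 17.2 and 20.4 FPKM in the LEN ovaries. HEN replicates 2 and 3 were the lowest ovaries, and HEN replicate 1 lay among LEN, so that the groups overlapped. The means were 12.7 ± 3.91 FPKM in the HEN ovaries and 18.3 ± 1.83 FPKM in the LEN ovaries (SD, n = 3 each), a difference of -0.53 ± 0.27 (SE), or -0.29 relative to the median of all transcripts. limma gave an adjusted p of 0.258 and the exact permutation test p = 0.2. Without HEN replicate 1 limma called it as lower in HEN (-0.75 ± 0.21, SE, adjusted p = 0.0186), where 37.0% of all transcripts were called lower. Without HEN replicates 2 and 3 the difference was -0.08 ± 0.30 (SE). The values corresponded to 471, 278 and 278 fragments in HEN and 481, 491 and 540 in LEN.

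The identity of the CASP8 row is uncertain. The deposited table ties it to Entrez gene 101803161, which the RefSeq annotation of a later duck assembly (IASCAAS_PekinDuck_T2T) lists without a gene name, whereas RefSeq gives the name CASP8 to Entrez gene 106014283. That gene is a row of the table with no symbol (ENSAPLG00000015210, from 66513 to 73170 on the same scaffold and strand), which lies between the CASP8 row and CASP10. It was at 5.21, 5.39 and 7.94 FPKM in the HEN ovaries and 2.48, 5.21 and 2.88 FPKM in the LEN ovaries. The lowest HEN ovary and the highest LEN ovary were nearly equal, and the difference of 0.69 ± 0.33 (SE) had the opposite sign to that of the CASP8 row (limma adjusted p = 0.241). CASP10, a death receptor caspase in mammals, was at 3.96, 5.48 and 8.57 FPKM in the HEN ovaries and 4.18, 4.92 and 3.43 FPKM in the LEN ovaries, a difference of 0.39 ± 0.33 (SE). A statement about duck CASP8 therefore depends on which row is taken: the named row was the more abundant in every ovary, by 3.30, 1.90 and 1.33-fold in HEN replicates 1, 2 and 3 and by 6.99, 3.29 and 7.10-fold in LEN. Reads shared between such neighbouring relatives could also have been split by the counting, which is not given in the sources used here.

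**Figure D2:**
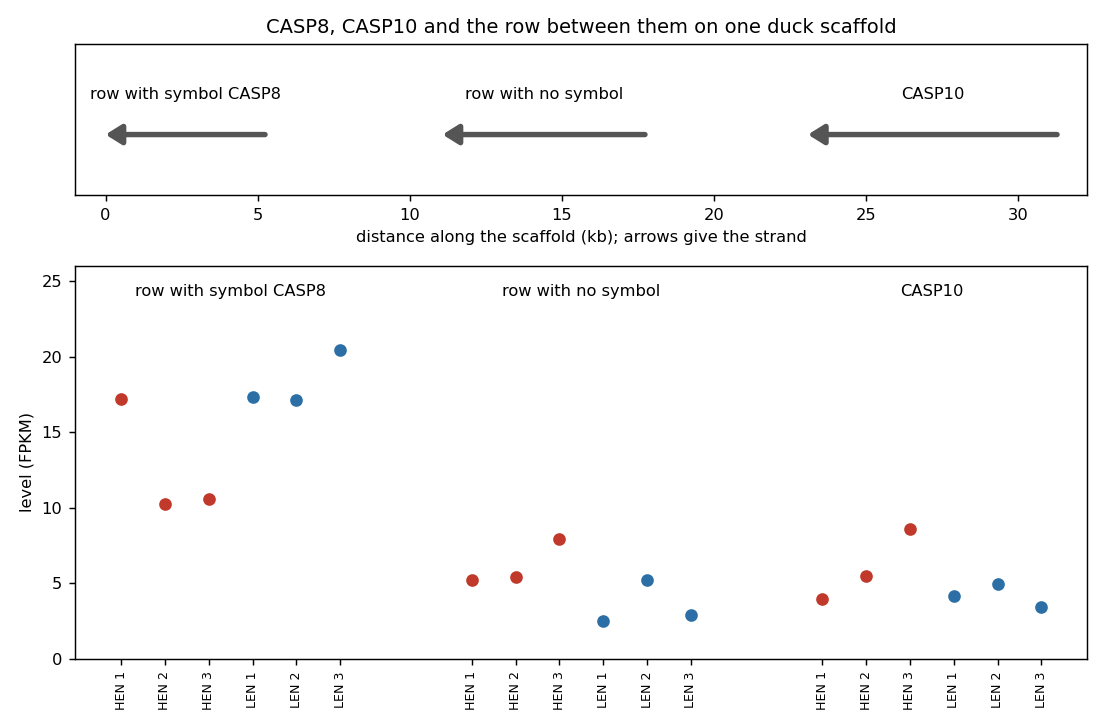
Top, positions and strand of the row with the symbol CASP8, the row with no symbol that RefSeq names CASP8, and CASP10, as distance in kb along the scaffold; bottom, level in FPKM of each row in 3 HEN (red) and 3 LEN (blue) ovaries. The CASP8 row is lowest in HEN 2 and HEN 3 (10.3 and 10.6 FPKM), where the row with no symbol is at 5.39 and 7.94 FPKM.

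CASP9, the initiator caspase of the apoptosome, overlapped between the groups. Its transcript (ENSAPLG00000008851, scaffold KB742757.1, from 1150144 to 1156247, plus strand) was at 13.9, 8.78 and 11.2 FPKM in the HEN ovaries and 7.58, 13.1 and 13.1 FPKM in the LEN ovaries. The lowest ovary was LEN replicate 1 and the highest HEN replicate 1. The means were 11.3 ± 2.57 FPKM in the HEN ovaries and 11.3 ± 3.18 FPKM in the LEN ovaries (SD, n = 3 each), a difference of 0.02 ± 0.31 (SE, limma adjusted p = 0.968). This difference was 0.26 relative to the median of all transcripts. With upper quartile scaling it was 0.28, with trimmed means 0.27 and with quantile normalization 0.33. The values rested on 202 to 366 fragments per library.

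BAK1, which forms the pore in the outer mitochondrial membrane, had HEN levels within the range of LEN. The transcript (ENSAPLG00000003058, scaffold KB744057.1, from 213137 to 223109, minus strand) was at 31.0, 27.2 and 32.8 FPKM in the HEN ovaries and 29.7, 22.0 and 34.4 FPKM in the LEN ovaries. LEN replicates 2 and 3 were the lowest and the highest of the 6 ovaries. The means were 30.3 ± 2.83 FPKM in the HEN ovaries and 28.7 ± 6.27 FPKM in the LEN ovaries (SD, n = 3 each), a difference of 0.10 ± 0.24 (SE, limma adjusted p = 0.803). Relative to the median of all transcripts the difference was 0.33. BAK1 was the member whose difference moved least when HEN replicate 1 (0.08) or HEN replicates 2 and 3 (0.13) were left out.

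BCL2L1 binds BAK1 and BH3-only proteins and keeps cells alive. Its transcript (ENSAPLG00000010375, scaffold KB743947.1, from 8928 to 19586, minus strand) was at 35.7, 26.7 and 24.2 FPKM in the HEN ovaries and 34.9, 30.4 and 38.7 FPKM in the LEN ovaries. HEN replicates 2 and 3 were the lowest ovaries, with HEN replicate 1 within the LEN range. The means were 28.9 ± 6.06 FPKM in the HEN ovaries and 34.6 ± 4.17 FPKM in the LEN ovaries (SD, n = 3 each), a difference of -0.27 ± 0.24 (SE, limma adjusted p = 0.459). That is close to the shift of all transcripts, so that the difference was -0.03 relative to their median. Its sign turned with some scalings (0.01 after upper quartile scaling and after quantile normalization). With others it did not (-0.26 after TPM scaling and -0.007 with trimmed means). The neighbour of BCL2L1 on the scaffold is TPX2, a spindle gene, at 41.8, 1.09 and 4.26 FPKM in the HEN ovaries and 70.7, 46.3 and 113 FPKM in the LEN ovaries, whereas BCL2L1 was at no less than 24.2 FPKM in any ovary.

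The ratio of BAK1 to BCL2L1 within a library is not changed by a scaling that multiplies the whole library by 1 factor. It was 0.867, 1.02 and 1.36 in HEN replicates 1, 2 and 3, against 0.850, 0.725 and 0.890 in LEN replicates 1, 2 and 3. HEN replicates 2 and 3 had more BAK1 than BCL2L1 per unit of length, unlike the other 4 ovaries. The means were 1.08 ± 0.250 in HEN and 0.822 ± 0.0862 in LEN (SD, n = 3 each), with overlapping groups, and the exact permutation test on log2 ratios gave p = 0.2. The ratio was chosen after the values were seen.

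BCL2, the founding survival gene of the family, was barely measured. Its row (ENSAPLG00000007303, scaffold KB744519.1, from 59962 to 60307) spans only 346 bases, and its values are whole fragments at a length of 312 bases. The values of 5.57, 3.59 and 1.23 FPKM in the HEN ovaries rested on 33, 21 and 7 fragments, and those of 3.50, 6.63 and 2.45 FPKM in the LEN ovaries on 21, 41 and 14. The 95% Poisson interval of HEN replicate 3 ran from 0.495 to 2.54 FPKM and that of LEN replicate 2 from 4.76 to 8.99 FPKM, and the groups overlapped. The means were 3.46 ± 2.17 FPKM in the HEN ovaries and 4.19 ± 2.17 FPKM in the LEN ovaries (SD, n = 3 each), a difference of -0.27 ± 0.50 (SE, limma adjusted p = 0.723), or -0.03 relative to the median of all transcripts. Its sign turned after quantile normalization (0.25), without HEN replicate 3 (0.16), without LEN replicate 2 (0.05) and without HEN replicates 2 and 3 (0.42).

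Among themselves the members differed in whether HEN replicates 2 and 3 stood apart. Over the 6 ovaries, log2(FPKM + 1) of CASP6 correlated at -0.99 with the CASP8 row and at -0.88 with BCL2L1, and the CASP8 row at 0.93 with BCL2L1. BAK1 correlated at 0.05 with CASP6 and 0.04 with the CASP8 row, and at -0.71 with BCL2. These are descriptions over n = 6 libraries of similar depth, in which HEN replicates 2 and 3 stand apart from the rest. By the same measure the transcripts most like CASP6 were ITM2B (0.998), an integral membrane protein, and LUC7L2 (0.997), a splicing factor, and 364 named transcripts exceeded 0.95. For the CASP8 row they were WASF1, an actin regulator, and LIAS, the lipoic acid synthase (both 1.00), with 2211 above 0.95. For BCL2L1 they were CENPU (0.999), a kinetochore gene, and ALKAL2 (0.995), with 601 above 0.95. Fewer exceeded 0.95 with the other members. The best were CDC42SE2 (0.949) and CDC42SE1 (0.944) for CASP9, with 0 above 0.95. For BAK1 they were MED18 (0.984) and LHFPL5 (0.977), with 6. For BCL2, which rests on 7 to 41 fragments per library, they were SLC35D1 (0.999) and MAPKBP1 (0.984), with 11.

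The rest of the pathway was described with lists of 79 genes, of which 56 had a row and 53 passed the filter. limma called 0 of the 53, as of all transcripts. At an unadjusted p under 0.05 there were 4 higher and 4 lower in HEN, against 5.10% and 16.9% of all transcripts. Groups did not overlap for 9 of the 53, of which 7 had HEN above LEN and 2 below, beside 20.3% of all transcripts in either direction, 6.92% above and 13.4% below. Their median difference was 0.30 (31 above and 22 below 0), against -0.24 over all transcripts, of which 37.1% were above 0. Without HEN replicate 1, limma made 15 calls of higher and 10 of lower among these genes, beside the 11.8% and 37.0% over the whole set of transcripts. Without HEN replicates 2 and 3 it called 0 and the median was 0.10.

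**Figure D3:**
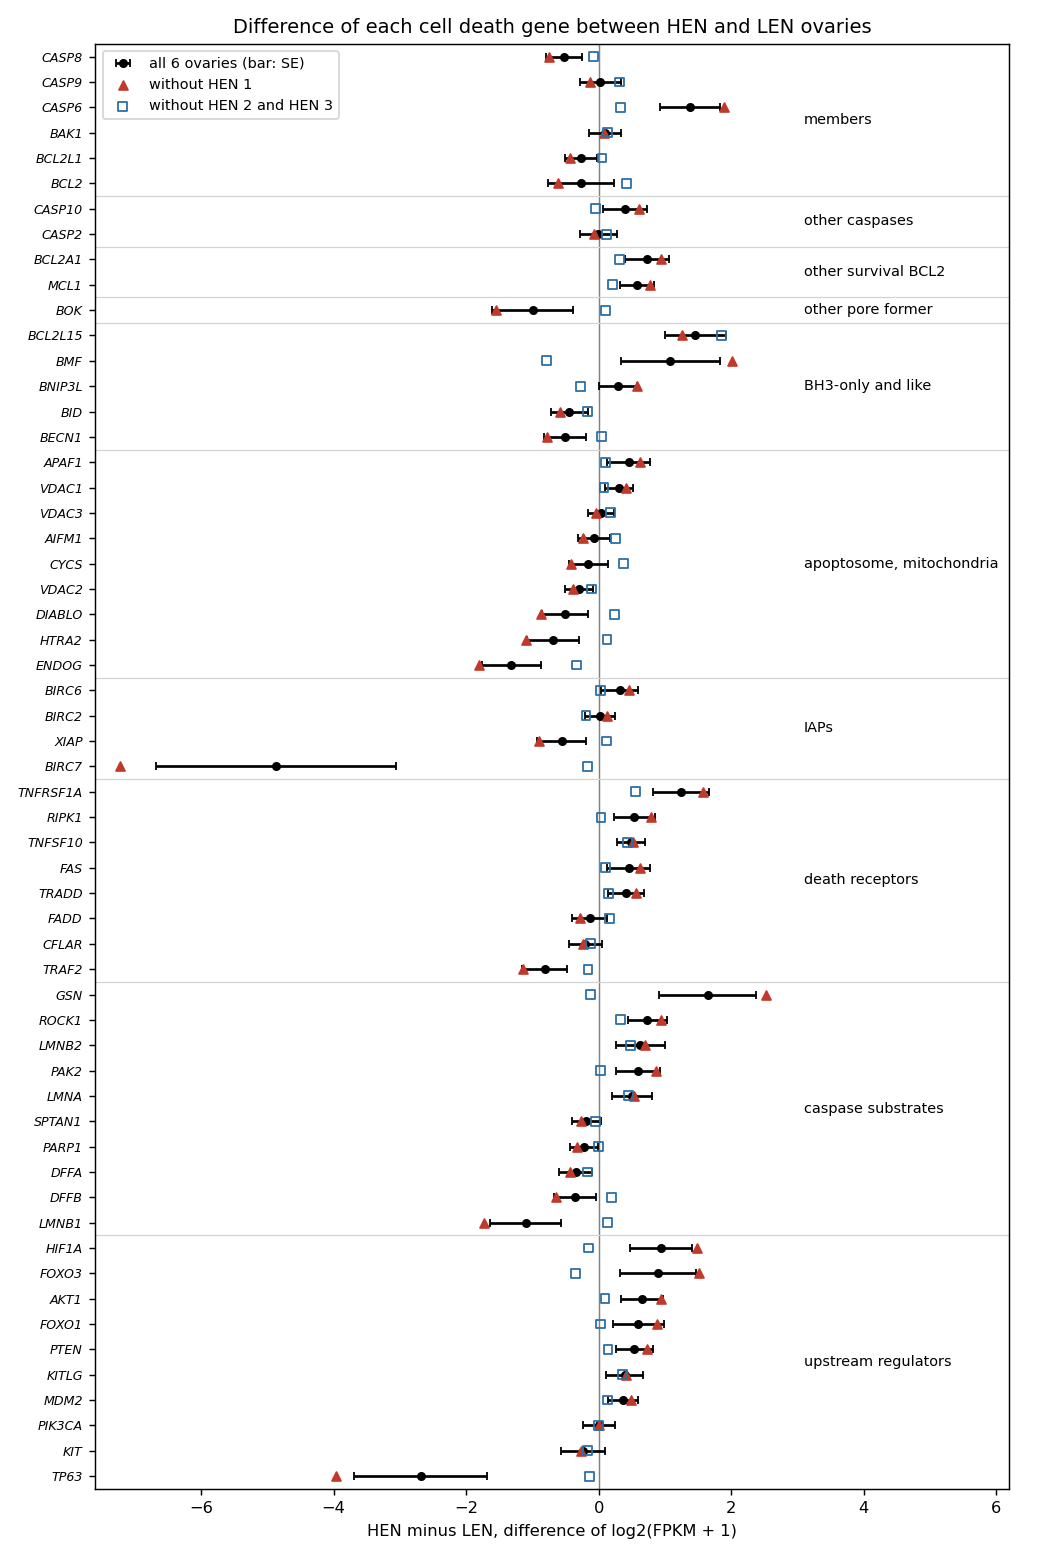
HEN minus LEN difference of log2(FPKM + 1) for 6 members and 51 other cell death genes, in groups by role; black points with SE bars use all 6 ovaries, red triangles leave out HEN 1 and open blue squares leave out HEN 2 and HEN 3. Most differences are farther from 0 without HEN 1 and nearer to 0 without HEN 2 and HEN 3, where BCL2L15 at 1.86 lies highest.

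Of the other caspases, 4 of 7 had a row, among them CASP10, described beside the CASP8 row. CASP2, a caspase that acts early in mammalian oocyte death and whose difference of -0.01 changed sign with each scaling, was at 6.06 ± 0.590 FPKM in the HEN ovaries and 6.22 ± 1.83 FPKM in the LEN ovaries (SD, n = 3 each).

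The other survival genes of the family with a row were MCL1 and BCL2A1. MCL1, a short-lived survival protein, was at 123, 151 and 219 FPKM in the HEN ovaries and 99.4, 113 and 107 FPKM in the LEN ovaries, above BCL2L1 and BCL2 in every ovary. Its lowest HEN value was above its highest LEN value, and the difference was 0.58 ± 0.26 (SE, limma adjusted p = 0.229). BCL2A1, a survival protein of leukocytes named through its Entrez identifier, was at 4.56, 8.53 and 6.66 FPKM in the HEN ovaries and 4.81, 3.50 and 2.42 FPKM in the LEN ovaries. Both passed as higher without HEN replicate 1 (limma adjusted p = 0.0209 and 0.0347), where 11.8% of all transcripts were called higher. The summed leukocyte markers, of which CD74 makes up the most, were also highest in HEN replicates 2 and 3. Within LEN that sum was highest in replicate 2 (722 FPKM). MCL1 was highest of LEN there (113 FPKM), whereas BCL2A1 was at 3.50 FPKM, below its 4.81 FPKM in LEN replicate 1. The part of leukocytes in these levels was not tested. Of the 11 leukocyte markers, 7 had a difference above 0 and 4 below 0. The other pore former with a row, BOK, was at 60.5, 35.2 and 9.55 FPKM in the HEN ovaries and 53.4, 48.7 and 67.9 FPKM in the LEN ovaries. HEN replicates 2 and 3 differed from each other by more in BOK than in any of the 6 members.

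Of 13 BH3-only and related genes, 6 had a row and 5 passed the filter. BCL2L15, a family member that promotes cell death in mammals, was at 8.21, 3.52 and 7.25 FPKM in the HEN ovaries and 1.72, 0.555 and 2.90 FPKM in the LEN ovaries. The groups did not overlap, and the difference of 1.46 ± 0.45 (SE, limma adjusted p = 0.226) was 1.26 without HEN replicate 1 and 1.86 without HEN replicates 2 and 3. The last rests on 1 HEN library, and the LEN values of BCL2L15 corresponded to only 18, 6 and 29 fragments. BID, which links caspase-8 to mitochondria, was at 51.9, 43.3 and 34.4 FPKM in the HEN ovaries and 45.2, 56.3 and 77.9 FPKM in the LEN ovaries, a difference of -0.44 ± 0.28 (SE). BECN1, an autophagy protein with a BH3 motif, was at 39.6, 21.9 and 21.7 FPKM in the HEN ovaries and 38.3, 30.4 and 47.8 FPKM in the LEN ovaries. BMF, a BH3-only protein that in mammals is released from the cytoskeleton and was singled out here after its values were seen, was at 6.60, 51.0 and 52.7 FPKM in the HEN ovaries and 10.5, 16.5 and 10.1 FPKM in the LEN ovaries. Like CASP6 it was high in HEN replicates 2 and 3, but HEN replicate 1 was the lowest of the 6 ovaries.

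All 9 apoptosome and mitochondrial genes had a row, with a median difference of -0.16 as deposited, which turned to 0.12 with upper quartile scaling, 0.11 with trimmed means and 0.07 with quantile normalization. ENDOG, a mitochondrial nuclease, was at 22.2, 7.30 and 7.43 FPKM in the HEN ovaries and 27.7, 22.5 and 36.4 FPKM in the LEN ovaries, a difference of -1.32 ± 0.45 (SE, limma adjusted p = 0.226). HTRA2 and DIABLO, which leave mitochondria to block inhibitors of caspases, were at 52.6, 22.5 and 21.5 FPKM and at 29.6, 13.1 and 13.3 FPKM in the HEN ovaries. In LEN HTRA2 was at 42.3, 39.9 and 65.9 FPKM and DIABLO at 22.8, 24.2 and 28.4 FPKM. These 3 of the 9 passed as lower without HEN replicate 1 (limma adjusted p = 0.000658, 0.00744 and 0.00867), where 37.0% of all transcripts were called lower. HEN replicate 1 was near the LEN ovaries in each.

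Inhibitors of apoptosis included the gene with the widest spread of the pathway. BIRC7, whose product binds caspases, was at 160.4, 0.0474 and 0.390 FPKM in the HEN ovaries and 163.5, 135 and 263 FPKM in the LEN ovaries. As for most of the oocyte markers, and for the epithelial marker EPCAM, HEN replicates 2 and 3 were far below the other ovaries. Their BIRC7 values correspond to 1 and 8 fragments. The part of oocytes in the level of BIRC7 was not tested. The difference was -4.87 ± 1.81 (SE, limma adjusted p = 0.226), against -0.16 without HEN replicates 2 and 3. XIAP, an inhibitor of CASP9, was at 26.9, 12.3 and 13.4 FPKM in the HEN ovaries and 31.4, 26.4 and 18.2 FPKM in the LEN ovaries. BIRC6, a large member of the family, was at 14.8 ± 2.91 FPKM in the HEN ovaries and 11.7 ± 2.68 FPKM in the LEN ovaries (SD, n = 3 each).

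In the death receptor list, 9 of 14 genes had a row and 8 passed the filter, with a median difference of 0.44. TNFRSF1A, a receptor for tumour necrosis factor that was named through its Entrez identifier, was at 24.5, 39.8 and 64.1 FPKM in the HEN ovaries and 16.7, 23.6 and 10.8 FPKM in the LEN ovaries, a difference of 1.24 ± 0.42 (SE, limma adjusted p = 0.226). TNFSF10, the ligand TRAIL, was at 24.4, 28.7 and 23.3 FPKM in the HEN ovaries and 18.0, 18.5 and 16.8 FPKM in the LEN ovaries, and all HEN ovaries were above LEN. Its difference was 0.49 ± 0.21 (SE), and 0.44 without HEN replicates 2 and 3. TRAF2, an adaptor that recruits survival signals, was at 38.9, 15.7 and 23.4 FPKM in the HEN ovaries, below the 43.0, 39.2 and 49.1 FPKM in the LEN ovaries. FASLG, the ligand of FAS, was at 0 to 0.490 FPKM in the HEN ovaries and 0 to 0.716 FPKM in the LEN ovaries and did not pass the filter.

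Transcripts of proteins cut by caspases lay on both sides, 5 of 10 with a difference above 0, beside 37.1% of all transcripts. For 2 of the 10 the groups did not overlap, with HEN above LEN. Of all transcripts, 6.92% lay that way, 13.4% the other way and 20.3% in either. LMNB1, a lamin, was at 30.2, 5.79 and 9.88 FPKM in the HEN ovaries and 28.05, 24.95 and 29.4 FPKM in the LEN ovaries. Its difference was -1.10 ± 0.53 (SE). The lamin genes LMNA and LMNB2 had the opposite sign, with differences of 0.51 ± 0.31 and 0.63 ± 0.37 (SE). ROCK1, whose cleavage drives membrane blebbing, was at 37.6, 57.9 and 57.9 FPKM in the HEN ovaries and 33.2, 37.1 and 21.2 FPKM in the LEN ovaries. GSN, the actin-severing protein gelsolin, was at 76.8, 576 and 417 FPKM in the HEN ovaries and 119, 79.7 and 62.3 FPKM in the LEN ovaries. Without HEN replicate 1 limma called LMNB1 as lower and ROCK1 and GSN as higher. In that setting 3 of the 10 were called higher and 1 lower, beside 11.8% and 37.0% of all transcripts. Of the genes upstream of the caspases, TP63, which guards oocytes in mammals, was at 17.2, 0.296 and 0.277 FPKM in the HEN ovaries and 21.7, 15.3 and 20.9 FPKM in the LEN ovaries. Like BIRC7 it was far lower in HEN replicates 2 and 3 than in the other ovaries. The part of oocytes in the level of TP63 was not tested. HIF1A, the hypoxia response factor, was at 32.4, 99.7 and 106 FPKM in the HEN ovaries and 37.5, 43.1 and 28.9 FPKM in the LEN ovaries, and the survival kinase gene AKT1 was at 45.2 ± 15.5 FPKM in the HEN ovaries and 27.4 ± 5.14 FPKM in the LEN ovaries (SD, n = 3 each).

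**Figure D4:**
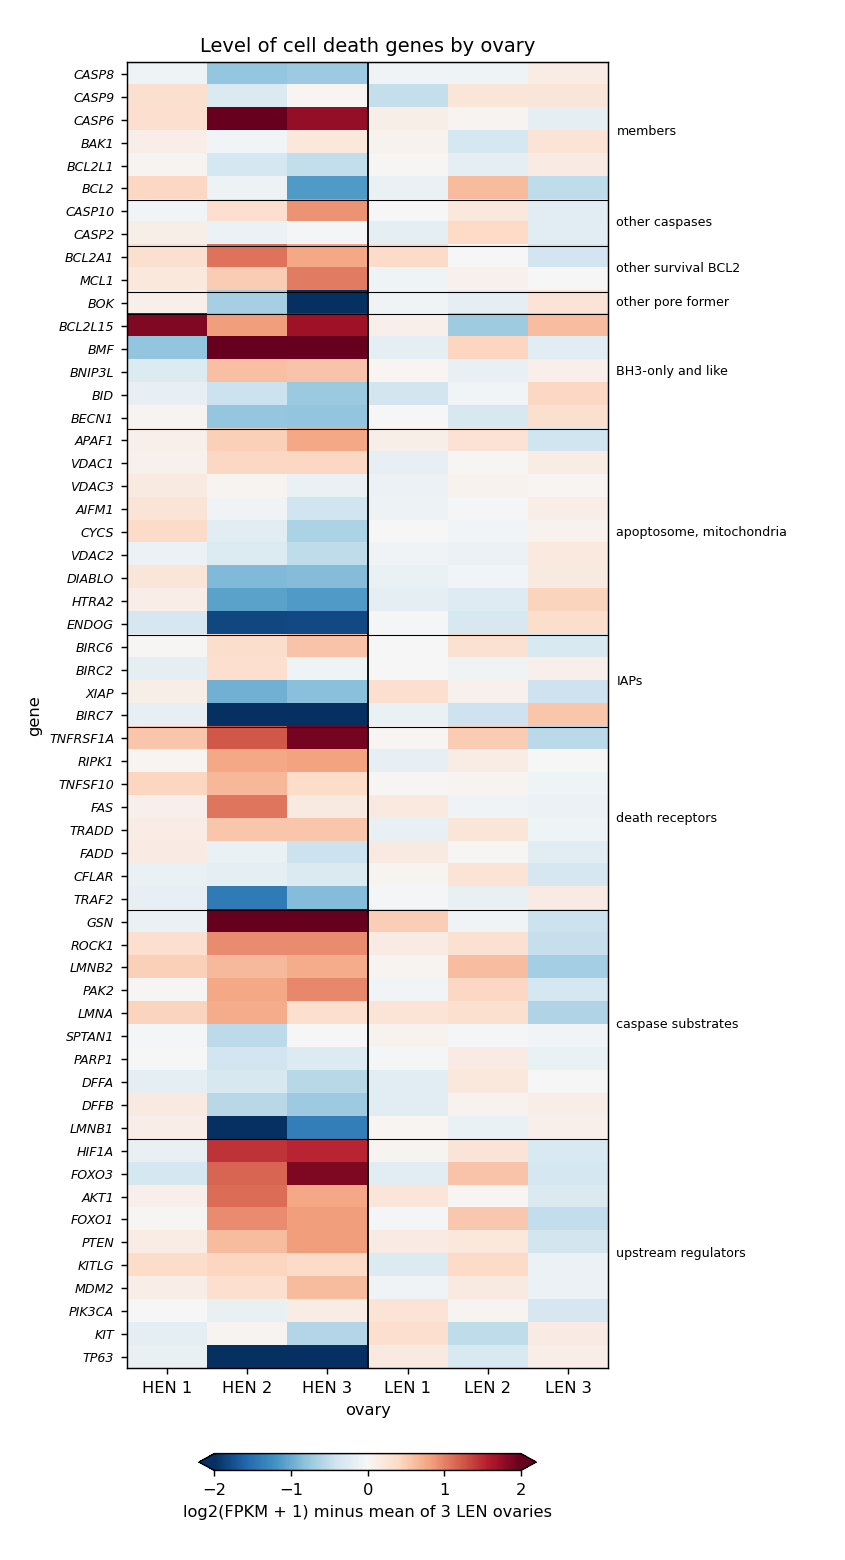
Level of the 6 members and 51 other cell death genes in each ovary (3 HEN columns, then 3 LEN), as log2(FPKM + 1) minus the mean of the 3 LEN ovaries, with colours saturating at 2 and -2; the LEN columns are narrowed because their own values make up the mean. HEN 1 resembles the LEN columns for most genes, while BIRC7 and TP63 are below the scale in HEN 2 and HEN 3.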

How the data were processed

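RNA of ovarian tissue from 3 HEN and 3 LEN ducks was extracted with TRIzol and sequenced from standard Illumina libraries, per the labels' protocols. The authors deposited FPKM values per Ensembl transcript. Aligner, counting, strandedness and genome build are not given in the sources used here, and coordinates are those of the deposited table. After 22 repeated transcripts were used once, 17169 remained. Symbols came from the table, or else through Entrez identifiers from RefSeq (IASCAAS_PekinDuck_T2T). Members were taken by table symbol alone. CASP9 and BAK1 carry the Entrez identifiers that RefSeq gives to these names. CASP6, BCL2 and BCL2L1 carry none, so that their identity rests on the symbol.

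Values were analysed as log2(FPKM + 1), which understates changes of low genes, with a mean of at least 1 FPKM (13328 transcripts) in limma 3.58.1 (R 4.3.3, trend, group as the only term, adjusted p under 0.05). Values of short noncoding genes were whole multiples of 1 fragment within 0.02 for 968 of 968 values, which gave depths of 18213744 to 19831761 fragments. The shortest length that made a member's 6 values whole gave its fragments; a multiple of that length would multiply them. Poisson intervals (95%) cover the counting error of 1 library only, not the spread between ducks. PCR copies cannot be separated from the other fragments. The limma step was tested on simulated data. Labels name separate ducks and no sequencing batch.

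Members, lists and rules were chosen with earlier results of these data known. Named were all members, up to 3 genes per pathway list by smallest unadjusted p, and the 2 transcripts most correlated with each member. Of the 2 most abundant markers per list, only FOXL2, STAR, PECAM1, CD74, EPCAM and KRT7 are named. DDX4, DAZL, SYCP3, NR5A2, TOP2A, CASP2, FASLG, BMF, LMNA, LMNB2, the row with no symbol and the genes beside members were added after their values were seen. Some genes of the lists enter the counts but are not reported here by name or drawn.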

Additional observations from a re-analysis of the deposited data

How the results depend on the processing

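Members called numbered 0 of 6 in all but a pair of alternatives. Without HEN replicate 1 there were 2, CASP6 higher and the CASP8 row lower. With arrayWeights there were 3, CASP6 higher, the CASP8 row and BCL2L1 lower. The row with no symbol that RefSeq names CASP8 had differences of 0.79 and 1.02 in these settings, the opposite sign to the CASP8 row. Leaving out a library gave 0 to 2 members, 0 to 25 of the 53 pathway genes and 0 to 6501 transcripts, the last being 48.8% of all. With arrayWeights, 7922 of all 13328 transcripts were called (2194 higher, 5728 lower), beside 31 of the 53 pathway genes and the 3 of 6 members. The weights were 0.114 for HEN replicate 1 and 5.62 for LEN replicate 1. All transcripts called were 1 with a pseudocount of 0.1 or TPM scaling, 4 with no filter and 1 without HEN replicates 2 and 3, where the lone HEN library is assumed to vary like LEN. CASP6 and the CASP8 row kept their direction under all 20 alternatives, several of which, such as the changed filters, cannot move a difference. BCL2L1 turned to 0.0068 with upper quartile scaling, 0.0098 with quantile normalization and 0.049 without HEN replicates 2 and 3. BCL2, removed by a filter at a mean of 5 FPKM, turned to 0.25 with quantile normalization, 0.16 without HEN replicate 3, 0.05 without LEN replicate 2 and 0.42 without HEN replicates 2 and 3. CASP9 turned to -0.13 without HEN replicate 1 and -0.22 without LEN replicate 1, and BAK1 to -0.077 without LEN replicate 2. Leaving out each library gave ranges of 1.05 to 1.90 for CASP6, -0.75 to -0.41 for the CASP8 row, -0.43 (without HEN replicate 1) to -0.15 (without HEN replicate 3) for BCL2L1, -0.22 to 0.18 for CASP9, -0.62 to 0.16 for BCL2 and -0.077 to 0.23 for BAK1. The cause was not tested. Deviations of same-numbered HEN and LEN libraries from their group means correlated at 0.02, 0.38 and -0.42, and those of unlike number between -0.49 and 0.46. With group means of 3 libraries, such values cannot decide whether the numbers pair the ducks. With the replicate block, 0 transcripts, 0 pathway genes and 0 members were called.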

Other observations

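Further marker lists gave these values. Theca and stroma markers, 10 of 12 with a row, summed to 1541, 1481 and 1410 FPKM across HEN 1, 2 and 3. Across LEN the sum was 1243, 807 and 579 FPKM, and differences lay above 0 for 8 and below 0 for 2. Smooth muscle markers, 5 of 8 with a row, summed to 926, 1083 and 858 FPKM across HEN 1, 2 and 3. Across LEN that sum was 736, 580 and 366 FPKM, and all 5 differences lay above 0. In both sums HEN 1 was also above each LEN ovary. The endothelial adhesion gene PECAM1 had 37.0, 102 and 88.2 FPKM across HEN 1, 2 and 3, against 31.5, 56.2 and 32.7 FPKM across LEN. Of 6 epithelial markers 4 had a row, and their differences lay above 0 for 2 and below 0 for 2. The adhesion gene EPCAM had 97.2, 3.07 and 2.96 FPKM across HEN 1, 2 and 3, against 103, 99.2 and 116 FPKM across LEN. The keratin gene KRT7 went the other way, with 49.4, 78.5 and 52.7 FPKM across HEN 1, 2 and 3, against 14.0, 32.5 and 25.8 FPKM across LEN. The part of these markers in the levels of the caspases and BCL2 genes was not tested.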
